A study of Mus musculus with 4 samples.

Results

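The peaks described here are those of histone H3 lysine 27 acetylation (H3K27ac) at the ends of mouse Zfp genes in Th17 cells, a class of CD4+ lymphocyte named for its product IL-17. A Zfp gene was a protein-coding gene whose symbol is Zfp followed by digits alone, in the RefSeq annotation of GRCm38, and 367 of 21631 protein-coding genes met this (autosomes 1 to 19, and X). The family below means these symbols, so the genes called outside it include other zinc finger genes, such as Zfp354c and Zkscan7. A peak was a member if it overlapped, by at least 1 bp, the 1000 bp on either side of an annotated gene end, the start or the finish. Of 56285 peaks in the deposited list, 331 were members, and 12510 others lay at the ends of other protein-coding genes. The running numbers in the peak names go up to 71449, and 15164 of them are not in the list, so a gene without a peak here is one without a listed peak.

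Zinc finger proteins of this family bind DNA through tandem fingers, small folds held by a zinc ion. Many carry a KRAB domain, which recruits the corepressor TRIM28 (KAP1) and the histone methyltransferase SETDB1, and silence transposable elements. Their genes arose largely by tandem duplication and stand in clusters of similar copies, while other Zfp genes encode widely used transcription factors or RNA-binding proteins and lie alone. H3K27 acetylation marks promoters and enhancers in use.

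Chromatin came from naive CD4+ T cells of C57BL/6 mice cultured for 72 h with anti-CD3ε (0.25 µg/mL), anti-CD28 (1 µg/mL), IL-6 (20 ng/mL) and TGF-β (0.1 ng/mL by the treatment label, 0.1 to 5.0 ng/mL by the growth protocol). All libraries share this strain and culture: 2 H3K27ac immunoprecipitations and 2 input DNAs, from 2 biological replicates. The peak names carry the tag WT_Ddx5, which the labels do not explain. The list has a position for each peak and no height, score or value per library, so nothing below has a replicate error and the depth is unknown. No test was made, since genes and peaks are not replicates, and in a bulk culture a mark in few cells and a weak mark in all cannot be told apart. Values for other genes stand beside those of the Zfp genes as a description. Gene-end peaks were found at 5 of 5 T cell markers in the gene table, beside 53.8% of all protein-coding genes. The Th17 cytokine genes Il17a (widest gene-end peak 7909 bp) and Il17f (5670 bp) also had them. Of other markers, 0 of 4 myeloid, 1 of 4 B cell and 1 of 3 erythroid genes did. The B cell gene was Cd79a, with peaks at its finish only, the widest of which (6758 bp) also touched Arhgef1. The erythroid gene was Klf1. With peaks inside the gene counted as well, 2 of 4 myeloid, 2 of 4 B cell and 1 of 3 erythroid markers had one. These lists are short, and cell identity was not tested.

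A set of 8 promoters, from 250 bases before to 50 after a transcription start, shows the range of sequences involved (sequences from RefSeq, GRCm38.p6, 5′ to 3′ on the gene's strand, with each CG in capitals). The first 3 lie under the widest member peaks at a listed start. The 3 after them belong to clustered genes with no peak at an outer end, and the last pair, chosen after their values were seen, are an inner start of Zfp708 and a gene of a cluster on chromosome 4 that had few peaks. The starts printed for Zfp52, Zfp790 and Zfp759 are also inner ones, 1814, 4635 and 6569 bp inside the outer start.
Zfp36 (chr7:28379179-28379478, minus strand, 21 CG): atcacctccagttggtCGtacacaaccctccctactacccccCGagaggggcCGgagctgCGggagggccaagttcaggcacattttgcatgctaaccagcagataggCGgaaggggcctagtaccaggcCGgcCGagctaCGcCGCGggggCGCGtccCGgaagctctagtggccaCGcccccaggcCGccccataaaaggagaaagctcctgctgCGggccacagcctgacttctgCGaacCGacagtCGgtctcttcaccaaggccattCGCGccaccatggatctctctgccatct
Zfp91 (chr19:12796074-12796373, minus strand, 24 CG): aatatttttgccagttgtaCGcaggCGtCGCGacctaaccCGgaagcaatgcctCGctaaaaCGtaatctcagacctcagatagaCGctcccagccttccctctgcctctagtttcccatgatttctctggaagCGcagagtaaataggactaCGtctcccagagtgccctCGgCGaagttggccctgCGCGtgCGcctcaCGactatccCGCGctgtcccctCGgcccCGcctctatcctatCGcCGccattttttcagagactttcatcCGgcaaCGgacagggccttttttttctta
Zfp52 (chr17:21535289-21535588, plus strand, 5 CG): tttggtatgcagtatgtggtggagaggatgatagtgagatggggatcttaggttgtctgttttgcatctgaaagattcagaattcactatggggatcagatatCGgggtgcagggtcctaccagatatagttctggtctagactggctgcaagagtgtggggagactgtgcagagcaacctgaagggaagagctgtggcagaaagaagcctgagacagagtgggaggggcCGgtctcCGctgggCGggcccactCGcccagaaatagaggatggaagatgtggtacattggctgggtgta
Zfp790 (chr7:29815822-29816121, plus strand, 16 CG): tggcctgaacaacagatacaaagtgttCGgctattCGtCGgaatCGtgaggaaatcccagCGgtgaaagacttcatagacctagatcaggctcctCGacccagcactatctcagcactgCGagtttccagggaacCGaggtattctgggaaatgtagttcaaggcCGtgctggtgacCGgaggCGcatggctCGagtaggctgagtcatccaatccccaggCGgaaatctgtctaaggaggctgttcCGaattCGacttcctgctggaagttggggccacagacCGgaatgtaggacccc
Zfp708, outer start (chr13:67097927-67098226, minus strand, 9 CG): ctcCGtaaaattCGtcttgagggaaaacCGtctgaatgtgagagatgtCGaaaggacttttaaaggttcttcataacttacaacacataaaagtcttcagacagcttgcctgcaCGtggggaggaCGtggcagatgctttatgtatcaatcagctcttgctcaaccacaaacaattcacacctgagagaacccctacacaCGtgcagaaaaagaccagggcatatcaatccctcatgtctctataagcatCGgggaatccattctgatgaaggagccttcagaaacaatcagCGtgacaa
Zfp759 (chr13:67127978-67128277, plus strand, 8 CG): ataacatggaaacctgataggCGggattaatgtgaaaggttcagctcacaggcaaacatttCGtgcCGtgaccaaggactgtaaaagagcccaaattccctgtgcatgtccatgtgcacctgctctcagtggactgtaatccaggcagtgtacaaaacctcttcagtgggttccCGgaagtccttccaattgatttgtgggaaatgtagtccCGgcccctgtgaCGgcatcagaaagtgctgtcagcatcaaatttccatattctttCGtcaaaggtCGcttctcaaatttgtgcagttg
Zfp708, inner start (chr13:67081496-67081795, minus strand, 8 CG): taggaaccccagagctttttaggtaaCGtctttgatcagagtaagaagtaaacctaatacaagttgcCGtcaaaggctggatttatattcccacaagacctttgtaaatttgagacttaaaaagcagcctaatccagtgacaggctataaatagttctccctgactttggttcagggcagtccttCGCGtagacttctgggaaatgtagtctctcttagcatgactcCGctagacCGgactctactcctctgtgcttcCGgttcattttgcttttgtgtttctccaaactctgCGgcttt
Zfp988 (chr4:147305354-147305653, plus strand, 4 CG): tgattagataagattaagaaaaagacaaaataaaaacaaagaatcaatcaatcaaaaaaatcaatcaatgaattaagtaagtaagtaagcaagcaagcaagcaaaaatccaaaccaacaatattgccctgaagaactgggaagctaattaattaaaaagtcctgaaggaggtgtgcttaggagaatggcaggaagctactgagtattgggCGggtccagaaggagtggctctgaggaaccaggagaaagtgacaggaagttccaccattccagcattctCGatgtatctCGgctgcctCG
Peaks overlapped the promoters of Zfp36, Zfp91, Zfp52, Zfp790, Zfp759 and the inner start of Zfp708. No peak overlapped the outer start of Zfp708 or the start of Zfp988.

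Most Zfp genes had a peak at an end. The count was 283 of 367 (77.1%), where 53.8% of all protein-coding genes had one and 11354 of the 21264 genes outside the family (53.4%) did. Among other zinc finger families, gene-end peaks were found at 38 of 41 Zbtb genes (92.7%), which encode zinc finger proteins with a BTB domain, and at 18 of 27 Zscan and Zkscan genes (66.7%), which encode SCAN-domain zinc finger proteins. Olfactory receptor genes, another family spread by tandem duplication, had them at 12 of 1110 genes (1.08%). Of the Zfp genes with a gene-end peak, 234 had 1, 41 had 2 and 8 had 3 or more. The 84 genes without one comprised 32 with a peak elsewhere in the gene and 52 with none in it.

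The marked end was the start. RefSeq promoters gave the strand of 305 Zfp genes, and of these 234 (76.7%) had a peak within 1000 bp of the annotated start and 15 (4.92%) within 1000 bp of the finish. Over all 17274 protein-coding genes of known strand the shares were 52.4% at the start and 11.0% at the finish. No Zfp gene had a peak at its finish and none at its start (0 of 305), which was the case for 370 of 16969 other genes. Among genes of at least 3000 bp, 231 of 302 Zfp genes (76.5%) had a peak at the start, beside 58.1% of all such genes. The finish was marked in 14 (4.64%, beside 10.2%), and these 14 also had a peak at the start, a combination found in 7.91% of all such genes. The 4.64% became 1.99% when the peak's midpoint had to lie in the window and 11.3% with a window of 2500 bp, beside 4.21% and 14.8% of other genes.

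Those 14 Zfp genes held 15 peaks at the finish that did not also lie at their start, and 7 of these 15 touched the end of another gene as well. The longest gene with separate peaks at both ends was Zfp710 (67938 bp), with 1362 bp at its finish. It was followed by Zfp53 (44268 bp), whose finish peak covers the start of Zfp52, and Zfp523 (28691 bp), whose finish peak of 7363 bp also lies at the start of Def6. Zfp174 had a finish peak of 1544 bp shared with Naa60, and Zfp786 one of 1271 bp shared with Pdia4. Zfp281, a repressor gene active in stem cells, had 2280 bp over its start and 2751 bp that reached the window of its finish and touched no other gene. This gene is 5491 bp long, and its peaks lay 121 bp apart.

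Peaks at Zfp starts lay across the start and reached further into the gene than away from it. Of 269 pairs of a peak and a Zfp start, 193 (71.7%) covered the start base, 55 lay wholly inside the gene side and 21 wholly upstream. In the 193, the median reach was 557 bp upstream and 921 bp into the gene, and 152 (78.8%) reached further into the gene. The corresponding values over 10106 pairs at other genes were 75.3% covering the start, 686 bp upstream, 1144 bp into the gene and 75.8%.

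**Figure D1:**
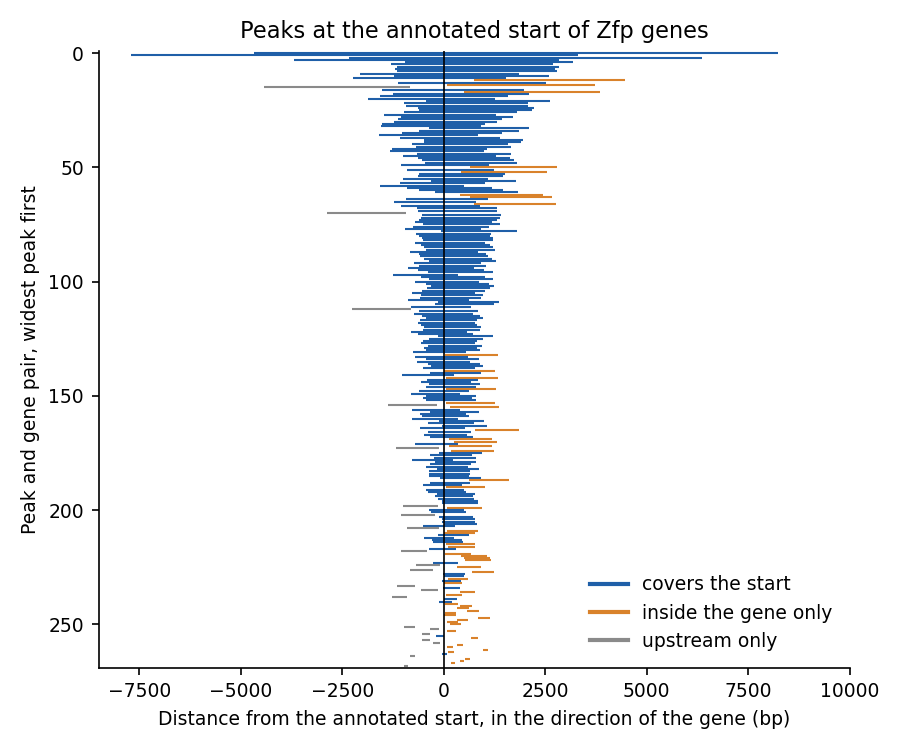
Each line is 1 pair of a peak and an annotated Zfp gene start (269 pairs, widest peak at the top), drawn from its first to its last base against distance from the start in bp, with positive values inside the gene. Most lines cross 0 (193 pairs, blue), 55 lie inside the gene (orange) and 21 upstream (grey).

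Member peaks were of middling width. Their median was 1309 bp (quartiles 815.5 and 2047.5 bp, range 100 to 12908 bp), beside 1488 bp (700.25 and 2326 bp, up to 74290 bp) for other gene-end peaks and 453 bp for peaks away from gene ends. Narrow and wide peaks were both less frequent: 52 of 331 (15.7%) were under 500 bp and 89 (26.9%) at least 2000 bp, beside 19.1% and 32.9% of the other gene-end peaks. With peaks that touch a single gene only, the medians were 1262 bp over 279 member peaks and 1401 bp over the rest. The order of the medians turned with a window of 2500 bp, where they were 1218 and 1211 bp. At the 95th percentile the widths were 3692.5 bp for members and 5041.3 bp for other gene-end peaks. At the annotated start alone, the widest peak of a gene had a median of 1394.5 bp in Zfp genes and 1808 bp in other genes.

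**Figure D2:**
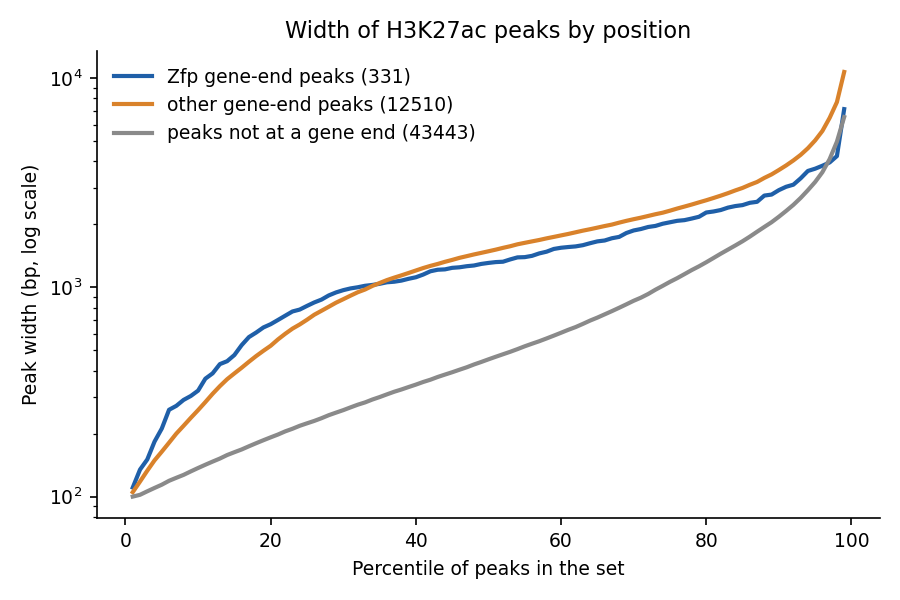
Peak width in bp (log scale) at each percentile from 1 to 99, for the 331 Zfp gene-end peaks (blue), the 12510 other gene-end peaks (orange) and the 43443 peaks not at a gene end (grey). The Zfp line lies above the other gene-end line at the 25th percentile (815.5 against 700.25 bp) and below it at the median (1309 against 1488 bp) and at the 95th (3692.5 against 5041.3 bp).

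Of the 10 widest member peaks, those at Zfp52 and Zfp53 (1 shared peak) and at Zfp51 lay in a cluster, and the others lay at genes outside clusters. Zfp36, which encodes tristetraprolin, an RNA-binding protein that promotes decay of cytokine mRNAs, lay whole within a peak of 12908 bp (chr7:28371005-28383912) that also reached the start of Plekhg2. Its gene is 2445 bp long, and the peak ran from -4684 to 8223 bp relative to its start. Zfp91, which encodes a ubiquitin ligase with zinc fingers, shared a peak of 11031 bp (chr19:12792807-12803837) with the start of Lpxn. That peak ran from -7714 to 3316 bp relative to the start of Zfp91. The third in width, 8705 bp, lay at the finish of Zfp53 and the start of Zfp52, within 13 clustered Zfp genes of chromosome 17 whose member peaks had a median of 1030 bp. In the same cluster Zfp51 had a peak of 4542 bp that touched no other gene.

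Zfp219 had a peak of 6530 bp and Zfp609 one of 4375 bp, and both also touched the finish of a neighbour, Tmem253 and Trip4. Zfp1 (4154 bp), Zfp62 (3998 bp) and Zfp367 (3977 bp) had single-gene peaks that covered their starts. At the other extreme, Zfp825 and Zfp937 had peaks of 100 bp, the smallest width in the list, Zfp970 had 101 bp, Zfp455 109 bp and Zfp975 114 bp. For Zfp937 this was the single gene-end peak, while Zfp825 also had one of 1029 bp, Zfp455 one of 1196 bp and Zfp975 one of 1101 bp. Zfp970 had a second of 137 bp.

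Zfp951 had the most gene-end peaks, 4 (widest 553 bp), all at its start. Another 7 genes had 3 each: Zfp174, Zfp78, Zfp653, Zfp825, Zfp932, Zfp750 and Zfp773, the last named because it ties. All 3 lay at the start in Zfp653 (widest 1152 bp), Zfp825 (1029 bp) and Zfp932 (620 bp), while Zfp174 (1544 bp) and Zfp78 (1218 bp) had 1 of the 3 at the finish and Zfp773 (485 bp) had 2 there. The strand of Zfp750 (552 bp) was not in the promoter table. The members nearest the edge of the window were Zfp446, Zfp239 and Zfp46, with the nearest peak at 842, 761 and 757 bp from an end, and just outside it were Zfp688, Zfp853 and Zfp235 at 1020, 1109 and 1203 bp.

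Member peaks stood alone more often than other gene-end peaks. The median gap to the next peak of any kind was 6089 bp, beside 2197.5 bp at other gene ends. Of the 331, 147 (44.4%) had no other peak within 10000 bp, beside 30.8%, and 117 (35.3%) had one within 1000 bp, beside 44.1%. For peaks that touched 1 gene the medians were 8641 and 2240 bp. For those that touched several they were 603 and 2073 bp, the opposite order. The 331 member peaks covered 525795 bp in all.

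Shared ends were about as common at Zfp genes as elsewhere. Of the 331 member peaks, 52 (15.7%) touched the ends of 2 or more genes, beside 18.2% of other gene-end peaks. Of the 52, 42 joined a Zfp gene to a gene with another kind of symbol, the zinc finger genes Zfp354c, Zscan10 and Zkscan7 among them. The other 10 joined Zfp genes to each other. Of 38 pairs in which both strands were known, 24 joined start to start. The next most frequent forms were a Zfp start with another gene's finish and a Zfp finish with another gene's start, with 6 each. Pairs were counted for each shared peak, so gene pairs with several peaks, such as Zfp944 with Zfp758 and Zfp653 with Ecsit, count more than once. Examples among these 24, chosen after their values were seen, were Zfp142 with the mitochondrial chaperone gene Bcs1l (2107 bp), Zfp661 with the mitochondrial ribosomal gene Mrps5 (1261 bp) and Zfp786 with its family member Zfp398 (1652 bp). Shared peaks had a median of 2040.5 bp, beside 1908 bp at shared ends of other genes.

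Other protein-coding genes lay further from the marked Zfp genes. The nearest one was at a median of 6271 bp (quartiles 1703 and 16199.5 bp) from the 283 Zfp genes with a gene-end peak, beside 1877.5 bp (45 and 9867.5 bp) for other genes with one. A marked Zfp gene overlapped another gene in 11.0% of cases, beside 21.9%. Both sets had a median of 5 protein-coding genes within 100000 bp. Zfp genes without a gene-end peak had their nearest neighbour at a median of 10549 bp, beside 10557 bp for other genes without. A second Zfp gene lay within 100000 bp of 162 marked Zfp genes (57.2%) and of 50 of the 84 unmarked ones (59.5%), and of 5.03% of marked genes outside the family.

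Zfp genes were marked inside clusters about as often as outside them. A run of at least 3 Zfp genes, each at most 100000 bp from the last, counted as a cluster, and 29 such runs held 166 genes, from 3 to 15 each. Gene-end peaks were found at 129 of the 166 (77.7%) and at 154 of the 201 genes outside (76.6%). The order turned when clusters were built with other distances (76.1% against 78.1% at 200000 bp). The widest gene-end peak of a gene had a median of 1309 bp in clusters and 1598.5 bp outside. In 11 clusters all genes were marked and in 1 none was. The 36 genes outside the family within cluster spans had gene-end peaks in 23 cases (63.9%). Of the 283 peaks of any kind that overlapped cluster spans, 147 (51.9%) were members.

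**Figure D3:**
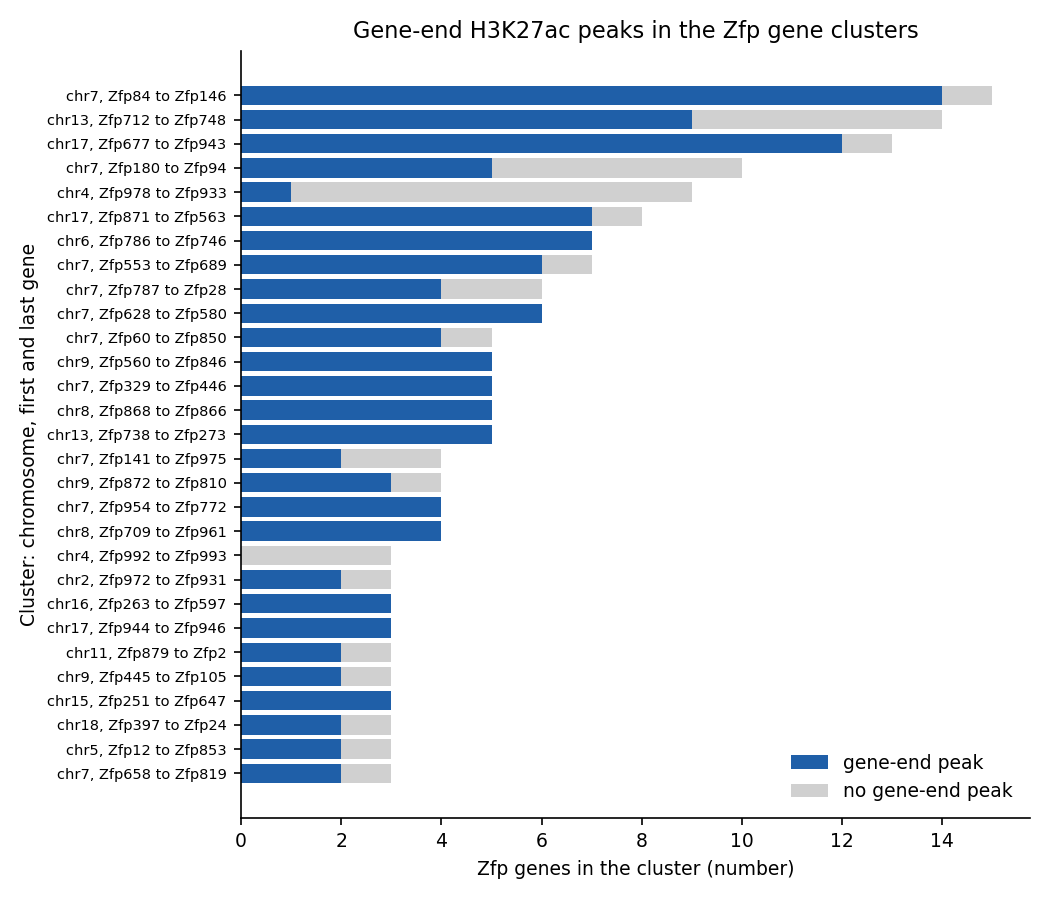
Number of Zfp genes with (blue) and without (grey) a gene-end peak in each of the 29 clusters, named by chromosome and by first and last gene. The bars run from 14 of 15 on chromosome 7 (Zfp84 to Zfp146) to 1 of 9 (Zfp978 to Zfp933) and 0 of 3 (Zfp992 to Zfp993) on chromosome 4.

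The cluster with most genes spans 401224 bp of chromosome 7 (29768552 to 30169775), where 14 of 15 genes were marked. Its widest peaks were at Zfp84 (3129 bp), Zfp260 (2094 bp) and Zfp146 (2017 bp), and Zfp790 was the gene without. Zfp568, a KRAB protein gene required for placental development that silences Igf2, lies in this cluster with 1844 bp. The chromosome 17 cluster (21383707 to 21994366) had 12 of 13, with Zfp229 as the gene without. Another on chromosome 7 (24081877 to 24316698) had 5 of 10, led by Zfp180 (2334 bp), Zfp94 (1309 bp) and Zfp114 (349 bp), while Zfp112, Zfp235 and Zfp109 were among those without. The chromosome 13 cluster (67038594 to 67553152) had 9 of 14, led by Zfp748 (1717 bp), Zfp87 (1394 bp) and Zfp712 (1328 bp).

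Some genes counted as unmarked had a peak at a start inside the annotated gene. Of the 71 Zfp genes without a gene-end peak that were in the promoter table, 22 (31.0%) had a peak within 1000 bp of a listed start, beside 514 of 7776 other genes (6.61%), and 16 of the 22 lay in clusters. The peaks had a median width of 983.5 bp, and the starts lay 1207 to 136109 bp inside the outer end, with a median of 4463 bp. A gene without a gene-end peak could have one only where a listed start lay away from its outer end. Such genes were not counted in either set, so 31.0% and 6.61% also reflect how often annotated ends and listed starts differ. With listed starts counted beside the ends, 305 of 367 Zfp genes (83.1%) had a peak, against 55.8% of other genes, and 145 of 166 in clusters (87.3%) against 79.6% outside. This count was chosen after the data were seen.

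On chromosome 13 this brought the cluster from 9 to 14 of 14 genes. Zfp708, which encodes a KRAB protein that binds a retrotransposon, had no peak at its outer start but one of 2359 bp at the inner start, 16431 bp into the gene, both printed above. Zfp759 had 827 bp at its listed start, 6569 bp inside, Zfp458 1053 bp, Zfp595 1622 bp and Zfp459 389 bp. Zfp790 on chromosome 7 likewise had 1712 bp at a start 4635 bp inside, which completed its cluster, and Zfp229 had 870 bp, which completed the 13 on chromosome 17. The other chromosome 7 cluster described above, from Zfp180 to Zfp94, went from 5 to 8 of 10 genes, with Zfp109 (727 bp) among those added. Zfp217, which encodes a transcriptional corepressor component, had no peak at its outer end and 1 of 8116 bp at a listed start 20457 bp inside.

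The lowest counts were in the chromosome 4 clusters. From Zfp978 to Zfp933 (147124882 to 147849126), 1 of 9 genes was marked, Zfp933 with 1266 bp, and listed starts added Zfp984 with 980 bp. The 3 genes from Zfp992 to Zfp993 had no peak at an end or a listed start. In all, 1 of 12 clustered genes on chromosome 4 was marked, beside 8 of 15 other Zfp genes of that chromosome and 128 of 154 clustered genes elsewhere (83.1%). The larger span of 724245 bp held 4 peaks of any kind, 0.552 per 100000 bp, and 0.355% of it was covered. The 29 spans together had 4.22 peaks per 100000 bp, and the chromosome 13 span 23 peaks covering 4.33%. Distances from the ends of unmarked genes to the nearest peak reached 222634 bp at Zfp982 and 750084 bp at Zfp992. The clustered genes of chromosome 4 were singled out after their counts were seen. Without these 12 genes the share over all Zfp genes was 79.4%, a rise that follows from that choice. The comparison with clustered genes elsewhere rests on the same choice.

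**Figure D4:**
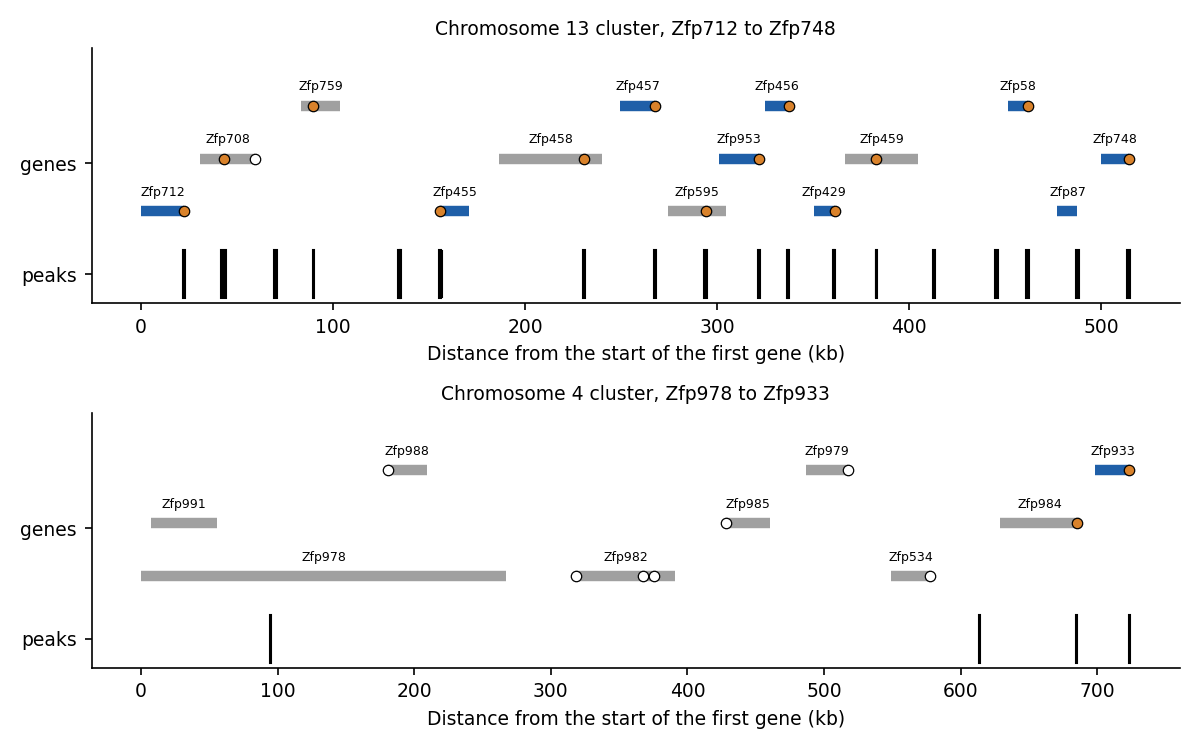
Zfp genes (bars, blue with and grey without a gene-end peak), listed starts (circles, orange with a peak within 1000 bp and white without) and peaks (black, drawn with a minimum line width) by distance in kb from the first gene's start. On chromosome 13, 13 of 14 listed starts have a peak and 23 peaks are spread over the span, while on chromosome 4 there are 4 peaks and 2 of 9 listed starts have one.

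Unmarked Zfp genes more often had a promoter that shared sequence with another promoter, though the median share was 0 in both sets. The share of a promoter's 30-base words found in the promoter of any other protein-coding gene, on either strand and leaving out promoters over the same bases, was above 0 in 27 of 71 unmarked genes (38%) and 29 of 234 marked ones (12.4%). Grouped by this share, 205 of 249 Zfp genes with no shared word were marked (82.3%), 20 of 32 with under 50% (62.5%) and 9 of 24 with 50% or more (37.5%). A short read that lies wholly in such words has more than 1 place in the genome, so the presence or absence of a peak there is uncertain, and the part this has in the counts was not tested.

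Of the 15 unmarked genes with 50% or more, 7 lay on chromosome 2, among them Zfp966, Zfp967, Zfp968 and Zfp973 at 100% and 517746 bp to 1063995 bp from any peak. Another 4 were on chromosome 4, 2 of them, Zfp534 (66.1%) and Zfp979 (53.5%), in the cluster from Zfp978 to Zfp933, where 5 of 7 listed promoters had shared words with a median of 35.4% over the 7. Zfp988, whose promoter is printed above, had 44.6%, and Zfp982 had none. In the chromosome 13 cluster 6 of 13 promoters had shared words, up to 18.1%. In the 14 listed promoters from Zfp84 to Zfp146 there were none. Of 14 marked genes whose widest gene-end peak was under 500 bp, 3 had shared words, all at 50% or more (Zfp970 100%, Zfp931 74.9% and Zfp937 52.8%), and 11 had none. Of 220 with a wider one, 26 had shared words and 6 had 50% or more.

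By chromosome, gene-end peaks were found at 72 of 90 Zfp genes on chromosome 7, where 42% of other genes had one. Chromosome 17 had 36 of 41 (87.8%, beside 57.1% of other genes), chromosome 13 25 of 32 (78.1%, beside 54.6%) and chromosome 2 14 of 24 (58.3%, beside 53.5%). All 10 Zfp genes on chromosome 15 (beside 59.3%) and all 5 on chromosome 16 (beside 52.2%) were marked. Chromosome 4, with 9 of 27 (33.3%, beside 55.3%), had a lower share of Zfp genes marked than of other genes.

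In median CpG density, marked and unmarked Zfp promoters both lay between the marked and unmarked promoters of other genes. The median ratio of observed to expected CpG in the promoter of 300 bases, taken at the listed start nearest the outer end, was 0.652 for 234 marked Zfp genes and 0.441 for 71 unmarked ones. For other genes the medians were 0.779 and 0.239. With marked and unmarked genes together they were 0.620 for Zfp genes and 0.585 for other genes. Unmarked refers to the gene ends, and a listed start can lie inside the gene. A peak overlapped 18 of the 71 promoters of unmarked Zfp genes (25.4%), beside 4.01% for unmarked other genes. Below a ratio of 0.25, 11 of 21 Zfp genes (52.4%) were marked, beside 13.9% of 4653 other genes, and from 0.25 to 0.5 these were 59 of 89 (66.3%) and 34.8%. From 0.5 to 0.75 they were 80.2% and 70.4%, and from 0.75 up 88.3% and 85.9%. Clustered genes with a peak had a median ratio of 0.617 and those outside clusters 0.707. Zfp27 (0.0878, 1669 bp) and Zfp52 (0.290, 8705 bp), chosen after their values were seen, were marked at a low ratio, and the Zfp52 promoter printed above has 5 CG in all.

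**Figure D5:**
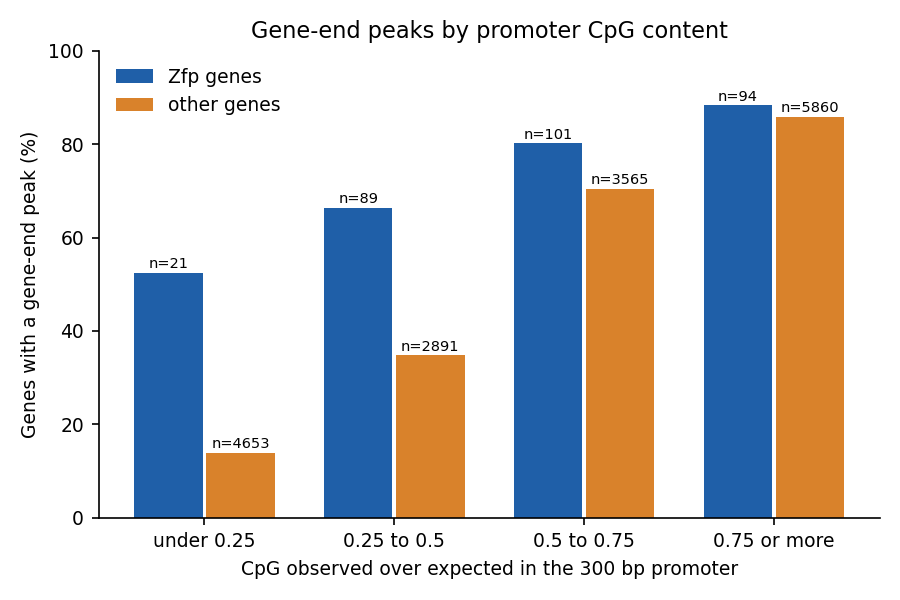
Percent of genes with a gene-end peak (bars from 0) in 4 ranges of the promoter's observed over expected CpG ratio, for Zfp genes (blue) and other protein-coding genes (orange), with the number of genes above each bar. The bars of the 2 sets are 52.4% and 13.9% in the lowest range and 88.3% and 85.9% in the highest.

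A total of 6 motifs were searched on both strands of these promoters, each counted once per promoter whatever it overlapped, and a match describes letters only. CCAAT, the box bound by NF-Y, was in 154 of 305 Zfp promoters (50.5%), beside 39.6% of all 17274 promoters. TATAAA was in 19 (6.23%, beside 13.4%) and GGGCGG, a GC box, in 135 (44.3%, beside 46.9%). ACTTCCGG, a core bound by ETS factors, was in 30 (9.84%, beside 5.34%), and 23 of the 30 genes were marked, beside 76.7% of all 305. The palindrome bound by NRF1 was in 11 (3.61%, beside 1.35%), and all 11 genes were marked, as were 200 of 222 other genes with it. The sequence bound by YY1 was in 3 (0.984%, beside 0.978%). Of the sequences printed above, Zfp790, Zfp759, Zfp52 and Zfp988 have CCAAT, Zfp36, Zfp52 and Zfp988 have GGGCGG, Zfp759 has ACTTCCGG, and the inner start of Zfp708 has TATAAA.

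The lists of Zfp genes by known role are short, and their counts stand beside 77.1% of all Zfp genes and 53.8% of all protein-coding genes marked. Zfp genes with known roles in lymphocytes were marked at 4 of the 4 found in the gene table, of 5 listed. Their widest gene-end peaks were Zfp36 (12908 bp), Zfp91 (11031 bp), Zfp335 (3825 bp), which encodes a nuclear factor needed for T cell maturation, and Zfp318 (1560 bp), which encodes a regulator of IgD expression in B cells. The median of the 4 was 7428 bp, beside 1431 bp over the 283 marked Zfp genes and 1822 bp over all marked protein-coding genes. The Zfp36 and Zfp91 peaks were shared with Plekhg2 and Lpxn, and Zfp91 lost its call when the peak's midpoint had to lie in the window.

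General regulators were marked at 10 of 11 (90.9%, beside 77.1% of Zfp genes), with a median widest peak of 2879.5 bp. Zfp219 had 6530 bp, Zfp143, a factor that binds many promoters, 3931 bp, and Zfp148 3338 bp. Zfp207, which encodes a mitotic spindle protein, had 3060 bp, Zfp292 3008 bp, Zfp281 2751 bp, Zfp706 2635 bp, Zfp384 2448 bp, Zfp644 1936 bp and Zfp638 1348 bp. Zfp217 was the gene without.

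Genes for silencing of retroelements and imprinted loci were marked at 4 of 6 (66.7%, beside 77.1% of Zfp genes), with a median of 1402.5 bp. They were Zfp568 (1844 bp), Zfp809, which restricts murine retroviruses in stem cells (1677 bp), Zfp445, which protects imprinted methylation (1128 bp, shared with Zkscan7), and Zfp932 (620 bp, in 3 peaks at its start). Zfp57, the other imprint protector, had its nearest peak 17840 bp away, and Zfp708 had the inner peak described above.

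Pluripotency and germ line genes had a gene-end peak at 1 of 4, beside 77.1% of Zfp genes and 53.8% of all genes. Zfp296 had 1471 bp, while Zfp42 (Rex1), a stem cell marker, lay 1877538 bp from the nearest peak, the furthest of all unmarked Zfp genes. Zfp819 lay 26076 bp from one and the germ cell gene Zfp541 1352 bp.

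Genes known for the development of other tissues were marked at 4 of 7 (57.1%, beside 77.1% of Zfp genes and 53.8% of all genes), with a median of 1455.5 bp. Zfp703, a regulator in breast epithelium, had 3647 bp and Zfp516, which promotes brown fat, 2359 bp, whereas the epidermal regulator Zfp750 had 3 narrow peaks, the widest of 552 bp, and Zfp521, an early haematopoietic and neural factor, 1 of 248 bp. Zfp423, a fat cell factor, had no gene-end peak and 483 bp at a listed start. The ends of Zfp462 lay 265381 bp from the nearest peak. Those of Zfp536 lay 197736 bp from one, and 384 bp inside the gene were under a peak.

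Partners of KRAB proteins in silencing had gene-end peaks at 15 of 16 genes (93.8%, beside 53.8% of all protein-coding genes), with a median of 3027 bp for the widest peak of each, beside 1822 bp over all marked genes. The corepressor gene Trim28 had 3823 bp and the methyltransferase gene Setdb1 2 peaks, the wider of 317 bp. Its partner Atf7ip had 5490 bp. The HP1 genes had 5804 bp (Cbx3, shared with Hnrnpa2b1), 4645 bp (Cbx5, shared with Hnrnpa1) and 1828 bp (Cbx1). The remodeller genes Chd4 and Chd3 had 4752 and 4305 bp, and Uhrf1, which guides maintenance of DNA methylation, 4703 bp. Among chaperone and other silencing genes, Daxx had 3027 bp, Morc2a 2320 bp, Atrx 2080 bp, Mphosph8 1738 bp, Morc3 1670 bp and Smarcad1 1639 bp. Dnmt1, the maintenance methyltransferase gene, had no gene-end peak, with the nearest 1362 bp from an end. At least 1 of its 3 listed starts had a peak within 1000 bp, and 7389 bp inside the gene were under peaks.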

How the data were processed

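H3K27ac ChIP-seq was made from 2 biological replicates with an input DNA each. Per the submitters' processing notes, the tools were MACS2 2.2.6, Bowtie2 2.3.4.1, deepTools and SAMtools 1.9, and the build GRCm38 (mm10). Not given in the sources used here: thresholds, filters and whether replicates were pooled. What the authors deposited is a list of positions, and read depth is unknown. With starts read from 0 the smallest width is exactly 100 bp (788 peaks), so they were read that way and are printed from 1.

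Genes and promoters came from RefSeq tables of GRCm38.p6, and 305 of 367 Zfp genes matched a promoter, which also gave strand. Windows, clusters, gaps and shared 30-base words were computed with Python 3.11.15, numpy 2.4.6, pandas 2.3.3 and scipy 1.17.1, and figures with matplotlib 3.10.9. The overlap code was tested on simulated data. Members and lists were chosen with earlier results of these data known.

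Named genes are those of the 10 widest and 5 narrowest member peaks, up to 5 with separate peaks at both ends, members of the 5 largest clusters, 5 with most peaks, and every gene of the lists. Alternatives were windows of 500 and 2500 bp, the peak midpoint, peaks of at least 500 bp, merging within 1000 bp and other cluster distances. KRAB domains and finger counts were planned and not analysed here, as no protein sequence was used.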

Additional observations from a re-analysis of the deposited data

How the results depend on the processing

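A value counted as moved where it left the exact 95% binomial interval of the reported share, or the binomial order interval of the reported median. Of 83 recomputed values, 68 stayed within it and 15 left it. The interval treats genes or peaks as independent draws, which they are not, and is a yardstick only. For the short gene lists it is wide, so staying within it does not show that a value is stable. The share of Zfp genes with a gene-end peak (77.1%) became 72.2% with peaks of at least 500 bp, 81.7% with a window of 2500 bp and 83.1% with listed starts added; other genes had 49.7%, 56.8% and 55.8%. The median width (1309 bp) became 1569.5 bp with merged peaks (other gene ends 1879 bp), 1471 bp with peaks of at least 500 bp (1756 bp) and 1218 bp with a window of 2500 bp (1211 bp), the 1 setting of 6 in which the order against other gene-end peaks turned. The share of member peaks at 2 or more genes (15.7%) became 11.0% by midpoint and 22.1% with 2500 bp. Peaks at start and finish (4.64%) became 1.99% by midpoint and 11.3% with 2500 bp. The clustered share (77.7%) became 84.9% with 2500 bp and 87.3% with listed starts. KRAB partners (93.8%) became 68.8% by midpoint and 100% with 2500 bp, and general regulators (90.9%) 100% with 2500 bp. The cause was not tested. Distances to the nearest gene stayed within the interval under all 5 settings. Of 76 named Zfp genes, 9 lost their call by midpoint, among them Zfp91, Zfp52 and Zfp53, whose wide peaks have their middle outside the window. A window of 2500 bp added 7, among them Zfp217 and Zfp235. Peaks of at least 500 bp removed 4, Zfp114, Zfp521, Zfp937 and Zfp970. No paired analysis was possible because the list carries no value per replicate, and for the same reason no replicate could be left out.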
